A study of Homo sapiens with 6 samples.

Results

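Chemokine and interleukin ligands are small secreted or membrane-bound proteins through which cells signal to immune cells and to each other. Their genes were taken here by name: protein-coding genes with a symbol that begins with CXCL or CCL and a digit, CX3CL1, XCL1, XCL2, LIF, CSF1, CSF2, CSF3, and interleukin genes written as IL with digits and an optional ending of A, B, F or RN, with receptors left out. The rule uses no measured value apart from a minimum of 10 counts summed over the 6 libraries for the genes described in detail. It was set, however, with earlier results of these data known. The rule found 86 genes among the 58051 of the count tables. Of these 86, 28 reached the minimum and belonged to the 20536 genes tested, 24 had 1 to 9 counts and 34 had no count in any library.

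RBFOX1 is an RNA-binding protein that acts on splicing and on the stability of mRNA through the motif written TGCATG in DNA letters. A172, an adherent line established from a human glioblastoma, was transduced with a lentiviral expression plasmid of the same backbone for RBFOX1 or, as control, for GFP, and stable lines were grown in DMEM with serum. There were 3 biological replicates of each, and stranded libraries of rRNA-depleted total RNA were read from both ends. Every comparison below sets RBFOX1 expression from the construct against GFP expression from it.

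Counts assigned to genes ranged from 7433414 to 23249221 per library, with the lowest and the highest in RBFOX1 replicate 1 and GFP replicate 1. RBFOX1 itself had 4, 0 and 1 counts in GFP replicates 1, 2 and 3, and 10276, 16467 and 21451 in RBFOX1 replicates 1, 2 and 3, so each library matched its label. Of 9 genes used as markers of glial and mesenchymal glioblastoma cells, VIM, CD44, FN1, NES, OLIG2 and SOX2 were measured with over 100 counts, whereas GFAP, the astrocytic filament protein, had 1 to 4 counts per library, and S100B and FABP7 had 3 and 1 counts in all. CD44, VIM, OLIG2 and FN1 were lower in RBFOX1 cells, with log2 fold changes of -0.90, -0.65, -0.50 and -0.34, and SOX2 and NES were higher, with 2.53 and 0.60. The summed level of the 9 genes was 5590 to 5710 CPM (counts scaled by library total and by edgeR's TMM factor) in GFP and 3720 to 3770 CPM in RBFOX1 libraries, and its part in the results on ligands was not tested. Of 16 leukocyte and endothelial markers, CD3E, MS4A1, AIF1, MPO and TYROBP had no count in any library. The summed level of the 16 was 5.81 to 7.48 CPM in GFP and 14.4 to 15.2 CPM in RBFOX1 libraries. PTPRC, PECAM1, VWF, CDH5 and CD79A of that list were higher in RBFOX1 cells and ITGAM was lower, and the part of these genes in the results on ligands was not tested. VWF, CDH5 and CD79A had 5, 8 and 2 counts over the GFP libraries and 67, 39 and 10 over the RBFOX1 libraries. They reached the minimum of 10 counts through the RBFOX1 libraries alone, so their calls carry no weight as a count. In such bulk cultures, fewer cells making a transcript and less transcript per cell cannot be told apart.

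The ligands fall into families with distinct receptors. CXC chemokines that carry an ELR motif, CXCL8 and its relatives CXCL1, CXCL2 and CXCL3, attract neutrophils through CXCR1 and CXCR2, CC chemokines attract monocytes and lymphocytes, and CX3CL1 is a membrane-tethered chemokine. Interleukins of the IL-1 family start inflammation through receptors coupled to MYD88 and NF-kB, and those of the IL-6 family, which includes IL11 and LIF, act through gp130 (IL6ST) and STAT3. Many of these genes are transcribed after NF-kB and AP-1 activation and give short-lived mRNAs with AU-rich 3' ends, and in glioblastoma several of them recruit or sustain myeloid cells.

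Ligand genes moved in both directions in RBFOX1 cells. Of the 28 tested, 10 were lower than in GFP cells (35.7%) and 6 were higher (21.4%) by edgeR's quasi-likelihood test at a Benjamini-Hochberg adjusted p under 0.05. Over all 20536 genes tested, 22.9% were lower and 23.7% were higher. Normalized counts, which are counts scaled by edgeR's TMM method to a common library size, did not overlap between the groups for 11 ligand genes that were lower in RBFOX1 and 6 that were higher, against 53.4% of all genes tested in either direction. The median log2 fold change of the 28 was -0.050 and that of all genes tested was 0.0051. These shares do not describe all 86 members, since 3 genes reached the minimum of 10 counts (CX3CL1, IL6 and IL36B) through the RBFOX1 libraries alone, 3 (CXCL8, CXCL3 and IL33) through the GFP libraries alone, and 2 with under 10 counts in each group. All 6 genes that passed through 1 group alone are among the called genes, and a gene kept in that way had to differ, so their calls carry no weight as a count. Of the 12 genes with at least 100 counts, 6 were lower and 3 were higher. The share of all genes called at that depth was not computed, so these numbers have no background to be set against. Summed over all members, the ligands made up 433 to 447 CPM in GFP and 307 to 309 in RBFOX1 libraries. This sum follows mainly the genes with the most counts and does not describe the typical member. Mean normalized counts of LIF were 2195 in GFP and 1441 in RBFOX1 libraries and those of CSF1 1479 and 592, while those of IL11 were 157 and 498.

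**Figure D1:**
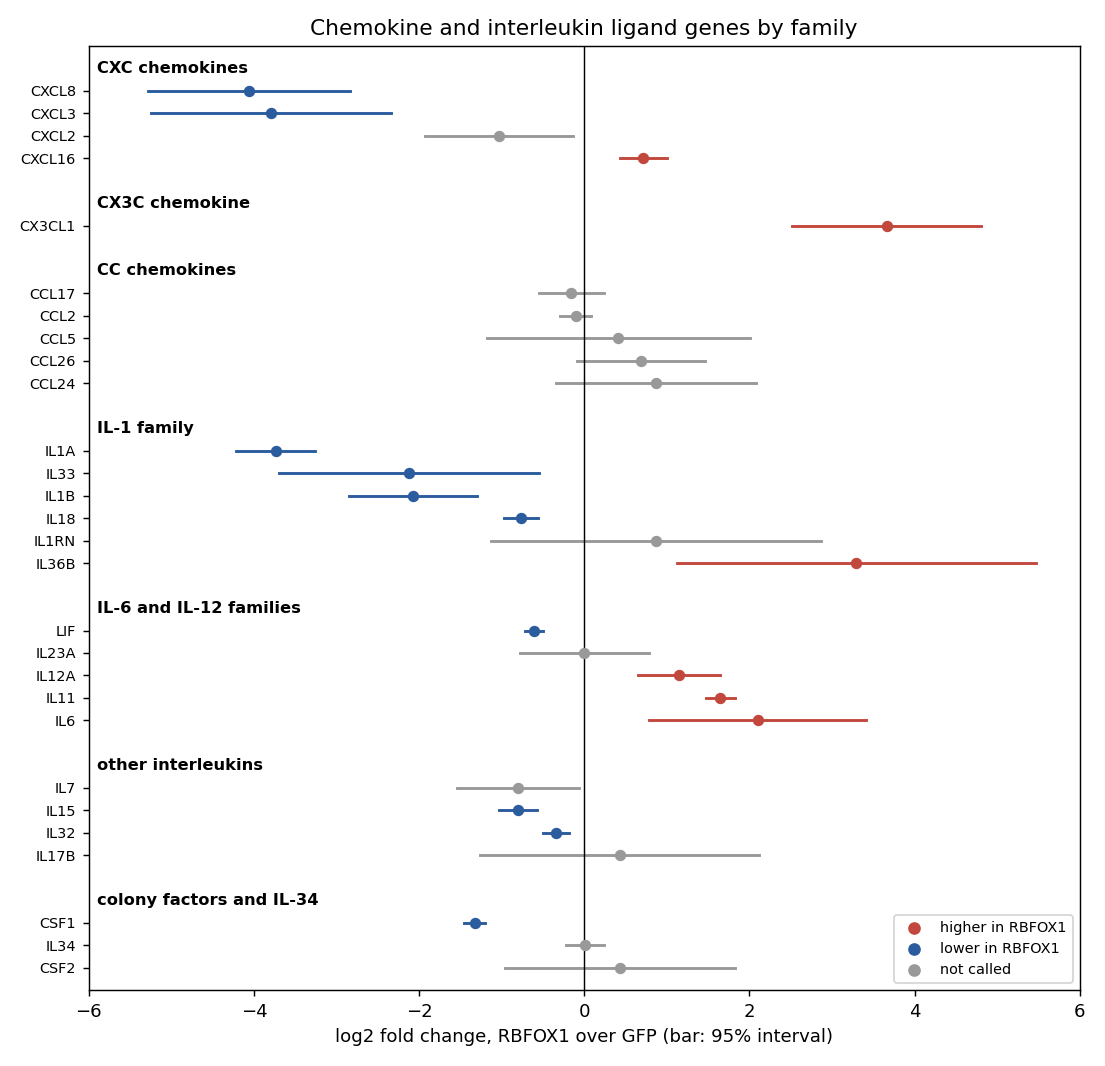
Log2 fold change of RBFOX1 over GFP for the 28 ligand genes tested, grouped by family. Points are the fitted values and bars their 95% intervals. CXCL8, CXCL3 and IL1A stand farthest to the left and CX3CL1 and IL36B farthest to the right, and within the CXC, IL-1 and IL-6 families members lie on both sides of 0.

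Among CXC chemokines, the neutrophil attractants CXCL8 and CXCL3 were lower in RBFOX1 cells, with 2 counts each over the RBFOX1 libraries, whereas CXCL16 was higher. CXCL8 (chr4:73740519-73743716, plus strand, GRCh38) had 25, 13 and 14 counts in the GFP libraries and 0, 1 and 1 in the RBFOX1 libraries. Every GFP library lay above every RBFOX1 library, and the summed counts, scaled to depth, gave a ratio of GFP to RBFOX1 of 19.2 with a 95% interval of 5.05 to 163 that covers counting error only. The fitted log2 fold change of CXCL8 was -4.06 (SE 0.584, adjusted p = 7.73e-06). CXCL3 had 21, 7 and 15 counts in GFP and 0, 0 and 2 in RBFOX1 libraries, a ratio of 15.9 with a counting interval of 4.13 to 135 (adjusted p = 0.000129). Since its 2 RBFOX1 counts both came from replicate 3, the fitted fold change of CXCL3, -3.79 (SE 0.694), depends on how a count of 0 is handled and reached -6.62 without that library. CXCL2, their close relative, had 22, 13 and 10 counts against 6, 2 and 8. Its log2 fold change was -1.03 with a 95% interval of -1.93 to -0.135 and its adjusted p was 0.0556, so it did not pass. CXCL2 did pass with all libraries under limma-voom (adjusted p = 0.0447), filterByExpr (adjusted p = 0.0449) and a minimum of 1 count (adjusted p = 0.0395), and also without GFP replicate 3 (adjusted p = 0.0489) and without RBFOX1 replicate 1 (adjusted p = 0.0324). CXCL1, the founding member of the group, was not detected in any library. Reads that align equally well to relatives were left out by the counting. The canonical transcripts of CXCL1, CXCL2, CXCL3 and CXCL8 shared no identical stretch of 100 bases, the read length. Near matches and other sequences were not searched, so whether reads of these genes were lost in this way was not tested.

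The promoters of CXCL8, CXCL3 and CXCL2 carry the best-known control element of these genes, and they are shown because these close relatives share the element, while CXCL8 and CXCL3 passed the test and CXCL2 did not. RefSeq promoter windows, from 250 bases before to 50 after the gene start on GRCh38.p14, were searched on both strands for the NF-kB motif GGANNTTCC, where N is any base. In each line the bases in capitals are the match, read on the strand of the gene, and IL6 is added as the called gene with the opposite direction.
CXCL8, chr4:73740468-73740496, plus strand: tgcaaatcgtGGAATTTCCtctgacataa
CXCL3, chr4:74038749-74038777, minus strand: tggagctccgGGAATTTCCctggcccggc
CXCL2, chr4:74099254-74099282, minus strand: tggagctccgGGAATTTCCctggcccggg
IL6, chr7:22727118-22727146, plus strand: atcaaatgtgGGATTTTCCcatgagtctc
Counted from the gene start, the matches begin at positions -91, -78, -77 and -72 in this order. CXCL3 and CXCL2 have the same 9 bases as CXCL8, and the printed windows of CXCL3 and CXCL2 differ only in their last base. The element thus stands in genes called lower, in CXCL2, which did not pass, and in IL6, which was called higher. CXCL8, CXCL3 and IL6 reached the minimum count through the libraries of their higher group alone, so these calls carry no weight as a count. A match is a description of the sequence and no evidence of binding.

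CXCL16, a transmembrane chemokine that also serves as a scavenger receptor, had normalized counts of 63.9, 68.7 and 83.9 in GFP and of 107, 127 and 114 in RBFOX1 libraries. The groups did not overlap, with means of 72.2 ± 10.5 and 116 ± 10.5 (SD, n = 3 each). Its log2 fold change was 0.72 (SE 0.136, adjusted p = 0.000187). CX3CL1, or fractalkine, which is best known from neurons signalling to microglia, lies at chr16:57372477-57385044 on the plus strand and had 3, 1 and 0 counts in GFP and 8, 17 and 16 in RBFOX1 libraries. All 3 RBFOX1 libraries lay above all GFP libraries although the RBFOX1 libraries were not deeper as a group, and the depth-scaled ratio of RBFOX1 to GFP was 13.9 with a counting interval of 5.03 to 53.4. The fitted log2 fold change of CX3CL1 was 3.66 (SE 0.546, adjusted p = 1.19e-05) and ranged from 3.24 to 4.54 over the alternatives run, the highest of them without GFP replicate 1.

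No CC chemokine passed the test. CCL2, the principal monocyte attractant of the list, had normalized counts of 310, 264 and 326 in GFP and of 275, 272 and 293 in RBFOX1 libraries. The groups overlapped, and the log2 fold change of -0.10 had a 95% interval of -0.29 to 0.083 (adjusted p = 0.382). CCL17, which attracts T cells through CCR4, had 111, 37 and 49 counts in GFP and 22, 47 and 60 in RBFOX1 libraries. Its log2 fold change was -0.16 with an interval of -0.55 to 0.24. The eosinophil attractants CCL26 and CCL24 had 23, 4 and 7 against 7, 15 and 18 counts and 5, 3 and 3 against 4, 8 and 3 counts, and CCL5 had 2, 6 and 2 against 3, 6 and 1. CCL26 had a log2 fold change of 0.69 (95% interval -0.086 to 1.46, adjusted p = 0.142), and 1.35 (adjusted p = 0.0142) when GFP replicate 1, its highest GFP library, was left out. The intervals of CCL24 (-0.34 to 2.08) and CCL5 (-1.18 to 2.01) on the log2 scale were wide.

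The IL-1 family held the best-measured large fall. IL1A, an alarmin that acts both as a nuclear precursor and as a released cytokine, lies at chr2:112773925-112784493 on the minus strand and had normalized counts of 134, 174 and 117 in GFP and of 6.88, 12.6 and 10.4 in RBFOX1 libraries. The lowest GFP library was far above the highest RBFOX1 library, with means of 142 ± 29.2 and 9.97 ± 2.90 (SD, n = 3 each). The log2 fold change of IL1A was -3.74 (SE 0.227, adjusted p = 3.46e-11), and it lay between -4.17 and -3.6 over all alternatives. IL1B, the cytokine that is cleaved by caspase-1 and released by inflammasomes, had 30, 20 and 30 counts in GFP and 3, 4 and 7 in RBFOX1 libraries. The groups did not overlap and its log2 fold change was -2.07 (SE 0.369, adjusted p = 9.57e-05). Both genes lie close together on chromosome 2.

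IL18, the other interleukin of the family that is matured by caspase-1, had normalized counts of 290, 241 and 278 in GFP and of 153, 152 and 172.4 in RBFOX1 libraries. Its groups were also apart, and the log2 fold change was -0.76 (SE 0.0985, adjusted p = 2.00e-06). IL33, a nuclear alarmin of barrier and glial cells, had 8, 3 and 8 counts in GFP and 0, 1 and 2 in RBFOX1 libraries, a ratio of GFP to RBFOX1 of 4.67 with a counting interval of 1.38 to 24.7. The call on IL33 (log2 fold change -2.12, SE 0.751, adjusted p = 0.0255) was lost without GFP replicate 3 (adjusted p = 0.0879), without RBFOX1 replicate 1 (adjusted p = 0.0661), without RBFOX1 replicate 2 (adjusted p = 0.0731) and with DESeq2 (adjusted p = 0.121), and the log2 fold change was -2.79 without RBFOX1 replicate 3. IL36B, an epithelial agonist of the family, had 0, 0 and 1 counts in GFP and 4, 2 and 4 in RBFOX1 libraries. It was called higher (adjusted p = 0.0129), its ratio of RBFOX1 to GFP of 13.6 had a counting interval of 1.93 to 588, and the call was lost without GFP replicate 1 (log2 fold change 2.56, adjusted p = 0.0686). The fitted log2 fold change of IL36B, 3.29 (SE 1.04), became 5.04 without GFP replicate 3, whose count was the only one in GFP cells. IL1RN, the secreted antagonist of IL1A and IL1B, had 1, 1 and 3 counts against 2, 5 and 0 and did not pass, with a 95% interval of -1.13 to 2.87 for its log2 fold change.

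**Figure D2:**
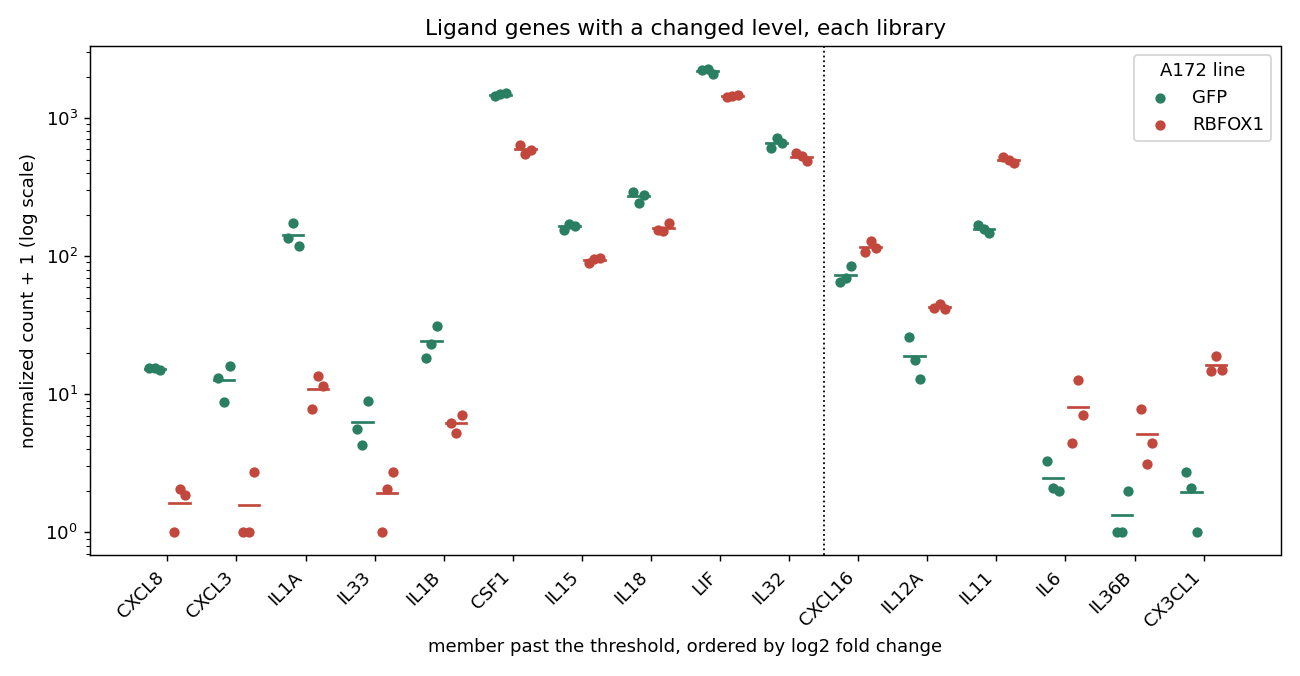
Normalized count plus 1 on a log scale in each of the 6 libraries for the 16 ligand genes that passed the test, GFP in green and RBFOX1 in red, with a line at each group mean. The dotted line separates the 10 genes that were lower in RBFOX1 from the 6 that were higher, and in none of the 16 do the libraries of the groups overlap.

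In the IL-6 and IL-12 families IL11, IL6 and IL12A were higher and LIF was lower. IL11, a gp130 cytokine linked to fibrosis and to tumour growth, lies at chr19:55364382-55370463 on the minus strand and had normalized counts of 168, 157 and 146 in GFP and of 521, 496 and 475 in RBFOX1 libraries. Each RBFOX1 library was above each GFP library, with means of 498 ± 22.9 and 157 ± 10.8 (SD, n = 3 each). IL11 rose by a log2 fold change of 1.65 (SE 0.0833, adjusted p = 2.10e-12) that stayed between 1.6 and 1.71 in every alternative. LIF, which keeps stem cells from differentiating and acts through the same gp130 chain, had 2230, 2263 and 2092 in GFP and 1416, 1446 and 1462 in RBFOX1 libraries. Its groups were apart as well, and LIF fell by 0.61 on the log2 scale (SE 0.0509, adjusted p = 4.88e-09).

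IL12A, the p35 chain shared by IL-12 and IL-35, had 43, 15 and 12 counts in GFP and 24, 42 and 47 in RBFOX1 libraries, or 24.8, 16.6 and 11.99 against 41.3, 44.2 and 40.7 normalized counts. After scaling, the RBFOX1 libraries stood close together above all GFP libraries, and the log2 fold change was 1.15 (SE 0.239, adjusted p = 0.000485). IL6, the acute-phase cytokine that gave the family its name, was scarce, with 4, 1 and 1 counts in GFP and 2, 11 and 7 in RBFOX1 libraries. The depth-scaled ratio of RBFOX1 to GFP for IL6 was 4.52 with a counting interval of 1.75 to 13.7. The call on IL6 (log2 fold change 2.10, SE 0.627, adjusted p = 0.00906) was lost without RBFOX1 replicate 2 (log2 fold change 1.59, adjusted p = 0.0923), with DESeq2 (adjusted p = 0.0570) and in counts thinned to the smallest library (log2 fold change 1.20, adjusted p = 0.265). IL23A, the p19 chain of IL-23, had 14, 10 and 7 counts against 4, 10 and 9 and a log2 fold change of 0.0028 with an interval of -0.78 to 0.79.

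Among colony-stimulating factors and the remaining interleukins, CSF1, which macrophages and microglia need to survive, had the largest fall of the 4 genes with over 10 length-scaled CPM (CPM per kilobase of exon) in GFP cells. CSF1 lies at chr1:109910242-109930992 on the plus strand and had normalized counts of 1436, 1489 and 1514 in GFP and of 635, 553 and 589 in RBFOX1 libraries. The groups were far apart, with means of 1479 ± 40.0 and 592 ± 41.1 (SD, n = 3 each) and a log2 fold change of -1.33 (SE 0.0609, adjusted p = 4.74e-13). IL34, the alternative ligand of the same receptor, had 140, 164 and 136 against 136, 144 and 155 normalized counts. These groups overlapped and the log2 fold change of IL34 was 0.0092 with an interval of -0.22 to 0.24, so that a change of the size seen in CSF1 lay outside its interval, although the difference between the genes was not tested. CSF2, which drives granulocytes and macrophages, had 8, 4 and 2 counts against 1, 11 and 2, and its log2 fold change of 0.44 became -1.09 without RBFOX1 replicate 2.

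IL15, which sustains natural killer and memory T cells, had normalized counts of 155, 169 and 165 in GFP and of 87.7, 94.8 and 95.3 in RBFOX1 libraries. The groups did not overlap and IL15 fell by 0.80 on the log2 scale (SE 0.110, adjusted p = 4.46e-06). IL32, an intracellular and secreted inducer of other cytokines, had 607, 722 and 659 against 556, 529 and 488 and showed the smallest of the called changes, a log2 fold change of -0.34 (SE 0.0755, adjusted p = 0.000869). IL7, a lymphocyte survival factor, had 24, 14 and 12 counts against 5, 5 and 11. After scaling, its RBFOX1 libraries all lay below its GFP libraries, but with a log2 fold change of -0.81 (SE 0.353) its adjusted p was 0.0701. IL17B had 4, 1 and 1 counts against 2, 3 and 1.

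The 24 genes with 1 to 9 counts were CCL3, CCL3L3, CCL7, CCL19, CCL20, CCL25, CSF3, CXCL6, CXCL10, CXCL11, CXCL12, IL3, IL4, IL5, IL12B, IL13, IL16, IL19, IL20, IL22, IL24, IL31, IL36RN and IL37. IL24, IL12B, IL36RN and IL37 had the most, 5 each. The 5 counts of IL24 were 2, 2 and 1 in the RBFOX1 libraries with 0 in each GFP library, too few for a statement. For the 34 genes without a count, a count of 0 allows a level of up to 0.129 to 0.404 CPM by plain library totals, without the TMM factor, depending on the library and covering counting error only.

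Levels of different genes can be set beside each other only per length of transcript. With CPM divided by the merged exon length of GENCODE release 44 in kilobases, LIF had the highest level of the ligands in both groups, 43.1 ± 1.77 length-scaled CPM in GFP and 28.3 ± 0.459 in RBFOX1 (SD, 3 libraries each). In GFP cells CSF1 followed with 21.5 ± 0.580, then IL32 with 15.7 ± 1.37 and CCL2 with 11.8 ± 1.27. IL18 at 7.86 ± 0.732 and CCL17 at 6.27 ± 1.42 were not separated beyond their spread. Neither CCL17, IL1A at 5.34 ± 1.10 and IL34 at 4.99 ± 0.516, nor IL1A, IL34 and IL11 at 4.45 ± 0.308, were separated beyond theirs, whereas CCL17 and IL11 were. In RBFOX1 cells IL11 stood next to LIF with 14.1 ± 0.651, ahead of IL32 with 12.4 ± 0.812 and CCL2 with 10.99 ± 0.442, and CSF1 came after them with 8.59 ± 0.596. IL1A was the lowest of the 12 genes with at least 100 counts in RBFOX1 cells, with 0.376 ± 0.109. The merged exons count every annotated isoform, so a gene expressed as a short isoform has its level understated.

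**Figure D3:**
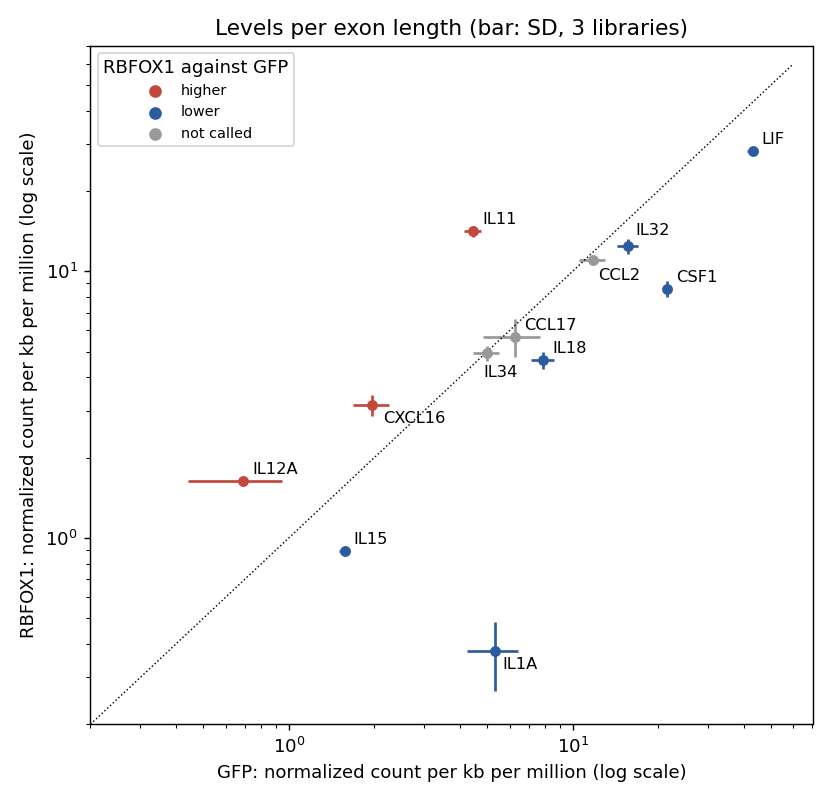
Level per exon length of the 12 ligand genes with at least 100 counts, in length-scaled CPM (normalized counts per kilobase at equal depth) on log scales, GFP on the horizontal and RBFOX1 on the vertical axis. Points are means and bars the SD of 3 libraries. IL11, CXCL16 and IL12A lie above the dotted line of equal level, IL1A lies farthest below it, and CCL2, CCL17 and IL34 lie on or near it.

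The receptors of the ligands that passed the test were taken from a list of 23 chemokine receptors and a list of 47 receptors of interleukins and colony-stimulating factors. For CXCL8 and CXCL3, CXCR1 had no count and CXCR2 had 2 counts in all, for CXCL16 the receptor CXCR6 had no count, and for CX3CL1 the receptor CX3CR1 had 1, 0 and 0 against 2, 2 and 1 counts. The receptors of these chemokines were therefore at the limit of detection in both groups. Of the 5 chemokine receptors tested, CXCR4, the receptor of CXCL12, had 75, 40 and 45 counts in GFP and 138, 242 and 309 in RBFOX1 libraries. CXCR4 rose by a log2 fold change of 2.53 (SE 0.115, adjusted p = 3.96e-13), while CXCL12 had 2 counts in all. CCRL2, a non-signalling receptor that presents chemerin, had 83, 53 and 48 counts against 1, 6 and 3 and a log2 fold change of -3.73 (SE 0.324, adjusted p = 7.78e-09). ACKR3, a scavenger of CXCL11 and CXCL12 that was picked out after its values were seen, had 1, 0 and 0 against 7, 21 and 17 counts (adjusted p = 1.31e-06). ACKR3 reached the minimum of 10 counts through the RBFOX1 libraries alone, so its call carries no weight as a count. The remaining chemokine receptors tested, CCR9 and CCR10, did not pass.

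Of the 47 interleukin and colony-stimulating factor receptors, 32 were tested, 12 were lower and 11 were higher, beside 22.9% and 23.7% of all genes tested, with a median log2 fold change of -0.089. Among the called receptors, IL1RL1 and SIGIRR reached 10 counts through the GFP libraries alone. IL2RB and IL3RA reached them through the RBFOX1 libraries alone. The calls of these genes carry no weight as a count. In the IL-1 family, the receptor of IL-18 fell with its ligand and IL1R1 did not pass. IL33 and its receptor IL1RL1 were both called lower, but both reached 10 counts through the GFP libraries alone. Their shared direction therefore carries no weight. IL1RL1, which binds IL-33, had 24, 14 and 18 counts in GFP and 2, 0 and 2 in RBFOX1 libraries (log2 fold change -3.27, adjusted p = 4.90e-05). IL18R1, which binds IL-18, had 50, 19 and 26 against 2, 6 and 2 (log2 fold change -2.76, adjusted p = 5.41e-06), and its partner IL18RAP had a single count. IL1R1, the signalling receptor of IL1A and IL1B, had 114, 52 and 62 against 41, 56 and 64 counts and a log2 fold change of -0.048 with an interval of -0.37 to 0.27. IL1RAP, the chain shared by the IL-1, IL-33 and IL-36 receptors, was lower with a log2 fold change of -0.51 (SE 0.0893, adjusted p = 7.44e-05). IL1RL2, the binding chain for IL36B, had no count in any library.

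Of the other ligand and receptor pairs, IL15 and IL15RA were both lower, IL15RA with a log2 fold change of -1.52 (SE 0.1004, adjusted p = 1.25e-10). CSF1 was lower while CSF1R, with 26, 19 and 12 against 26, 30 and 28 counts, was higher by 1.01 on the log2 scale (SE 0.276, adjusted p = 0.00499). LIF was lower while LIFR was higher by 0.39 (adjusted p = 2.66e-06) and the shared chain IL6ST was lower, with a change of -0.25 (adjusted p = 0.00011). IL11 was higher while IL11RA had a log2 fold change of -0.25 with an interval of -0.56 to 0.066 and did not pass. IL6 and IL6R were both higher, IL6R with 35, 14 and 14 against 36, 58 and 70 counts and a log2 fold change of 1.82 (SE 0.199, adjusted p = 2.01e-07). IL6 reached the minimum count through the RBFOX1 libraries alone, so the shared direction of this pair carries no weight. For IL12A, IL12RB1 had under 5 counts in each library and IL12RB2 had none. For IL15, IL2RB had 1, 0 and 0 against 1, 3 and 9 counts and was called higher (adjusted p = 0.00460).

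**Figure D4:**
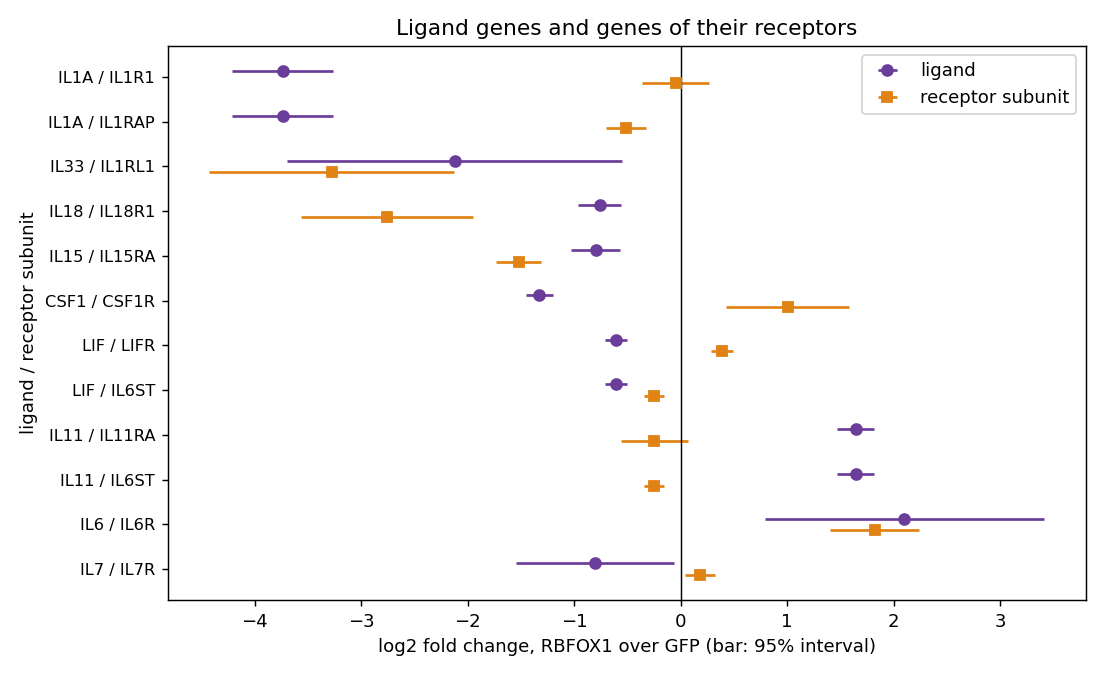
Log2 fold change of RBFOX1 over GFP for 12 pairs of a ligand gene and a receptor subunit gene. Circles are ligands, squares receptor subunits, and bars 95% intervals. Both genes of the IL33, IL18 and IL15 pairs lie left of 0, both of the IL6 pair right of it, and those of CSF1 with CSF1R and LIF with LIFR on opposite sides.

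Genes that carry signals to and from these ligands were described by lists written from their known roles, with earlier results of these data known. Of 24 genes for NF-kB factors, their kinases and inhibitors, 15 were lower, 2 were higher and 7 did not pass, where 22.9% of all genes tested were lower and 23.7% higher, and the median log2 fold change was -0.35. BIRC3, an NF-kB target and ubiquitin ligase, had 2235, 1157 and 1278 counts in GFP and 212, 277 and 359 in RBFOX1 libraries (log2 fold change -2.01, adjusted p = 9.79e-15). NFKBIA, the inhibitor that NF-kB itself induces, had a log2 fold change of -1.26, RELB of -0.72, BIRC2 of -0.71, TNIP1 of -0.65 and TNIP2 of -0.56, each past the threshold. The 2 higher genes were MAP3K14 and TRAF2, with log2 fold changes of 0.41 and 0.28. RELA, the main transactivating subunit, had a log2 fold change of 0.16 and an adjusted p of 0.0567.

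Of 23 genes for Toll-like and IL-1 receptor signalling, 18 were tested, 8 were lower and 2 were higher, beside 22.9% and 23.7% of all genes tested. Their median log2 fold change was -0.36. TLR6 fell by 1.90 on the log2 scale (adjusted p = 4.95e-13), TLR4, the receptor of lipopolysaccharide, fell by 1.55 (adjusted p = 1.31e-13), IRAK2 fell by 1.00 and TLR3 fell by 0.68. CEBPD, a transcription factor of acute inflammation, had 42, 20 and 25 counts in GFP and 33, 74 and 74 in RBFOX1 libraries and a log2 fold change of 1.49 (adjusted p = 1.25e-06), and TAB3 one of 0.66. Of 23 JAK, STAT, SOCS and PIAS genes, some of which act after gp130, 9 were higher, 5 were lower and 9 did not pass. Of all genes tested, 23.7% were higher and 22.9% lower, and the median log2 fold change of the list was 0.11. SOCS3, the feedback inhibitor induced by gp130 cytokines, had 528, 224 and 326 counts in GFP and 382, 731 and 825 in RBFOX1 libraries. It had the highest log2 fold change of this list, 1.28 (SE 0.0869, adjusted p = 1.84e-10), followed by STAT5A with 1.10, SOCS5 with 0.92, CISH with 0.76, STAT2 with 0.72 and STAT3, the main transcription factor after gp130, with 0.70. The 5 lower genes were JAK3, JAK2, SOCS4, PIAS4 and JAK1, with log2 fold changes of -0.74, -0.57, -0.39, -0.27 and -0.24.

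**Figure D5:**
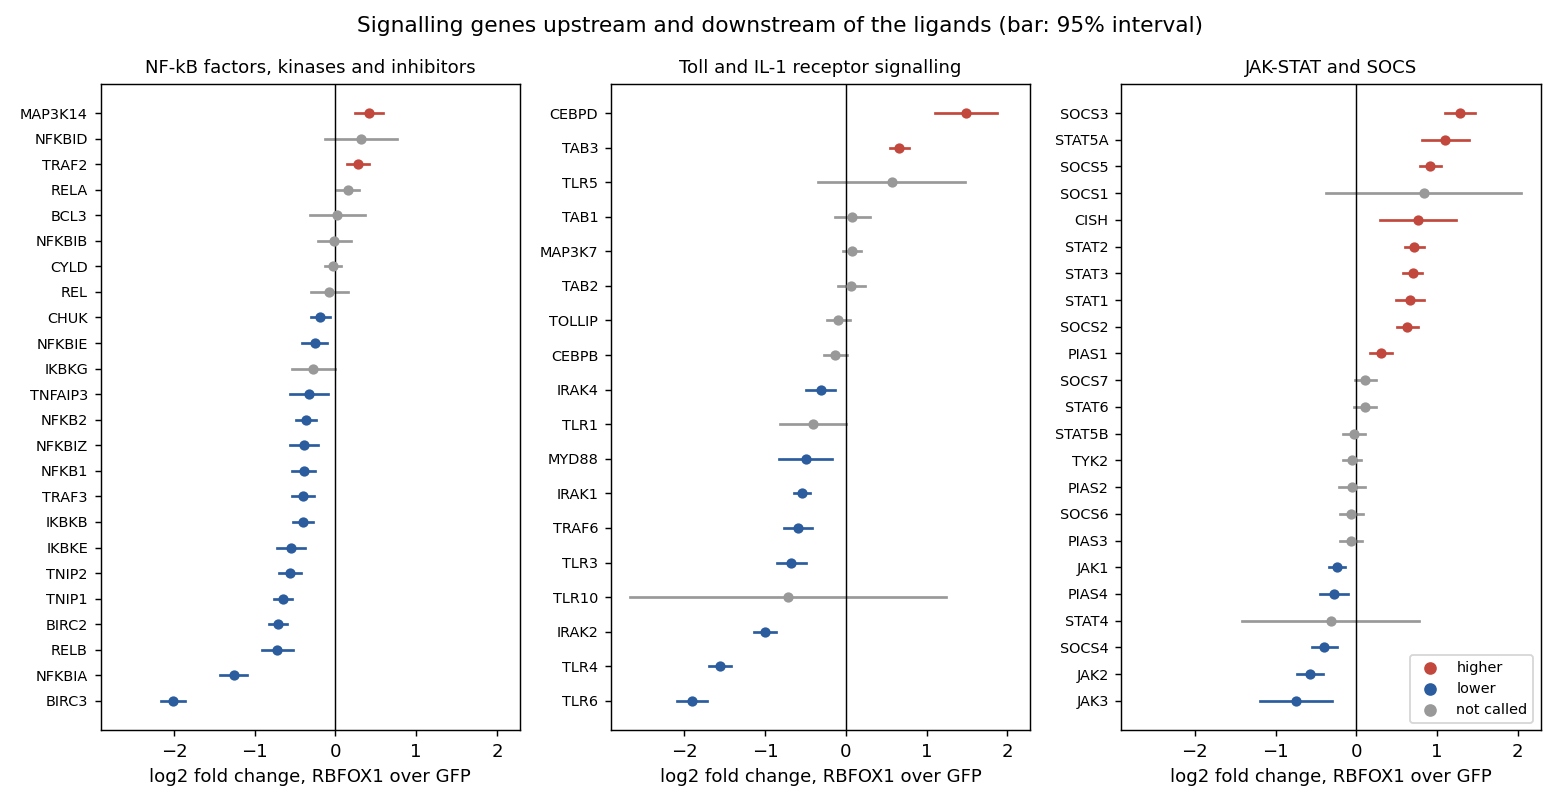
Log2 fold change of RBFOX1 over GFP for the tested genes of 3 signalling lists, ordered by size, with 95% intervals as bars. Most NF-kB genes and most Toll and IL-1 receptor signalling genes past the threshold lie left of 0, with BIRC3, NFKBIA, TLR6 and TLR4 farthest, and 9 JAK-STAT genes past the threshold lie right of 0, with SOCS3 at the top.

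Of 11 genes for the processing of IL-1 family cytokines, 7 were tested, 3 were lower and 2 were higher, beside 22.9% and 23.7% of all genes tested. NLRP3, the sensor of the best-known inflammasome, had 151, 60 and 75 counts in GFP and 14, 29 and 40 in RBFOX1 libraries (log2 fold change -1.33, adjusted p = 3.51e-06). CASP4 and the pore-forming GSDMD were lower, with log2 fold changes of -0.71 and -0.34. CASP1, which cleaves the precursors of IL1B and IL18, was higher by 0.65 on the log2 scale and NLRP1 by 0.37, and the adaptor PYCARD had no count. Of 15 related cytokine genes that the naming rule leaves out, 11 were tested. EBI3, the partner chain of IL12A in IL-35, had 41, 20 and 25 counts in GFP and 35, 48 and 73 in RBFOX1 libraries and rose by a log2 fold change of 1.29 (SE 0.187, adjusted p = 8.25e-06). TSLP fell by 0.91 on the log2 scale (adjusted p = 0.00904), and 8 did not pass. Without RBFOX1 replicate 2 the call on TSLP was lost and 0 genes of this list were lower.

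Control of these mRNAs through their 3' ends was looked at in sequence. The 3' UTR of the canonical GENCODE transcript was searched on the transcript's own strand for the AU-rich motif TATTTAT, whose matches can overlap each other, and for TGCATG, the RBFOX motif. At least 1 TATTTAT was present in 13 of the 28 ligand genes (46.4%), against 35.5% of 14050 protein-coding genes tested with an annotated 3' UTR. The ligand 3' UTRs were shorter, with a median of 694.5 bases against 1298, and among the 14 ligand genes and 3846 genes of all tested with 3' UTRs of 366 to 1142.25 bases, 6 ligand genes and 20.1% of all genes held the motif. TATTTAT stood in 6 of the 10 lower, 4 of the 6 higher and 3 of the 12 uncalled ligand genes. Of the called genes with the motif, CXCL8, CXCL3, CX3CL1 and IL6 reached the minimum count through 1 group alone. Their calls carry no weight as a count. The others with the motif were CSF1, IL1A, IL1B and LIF, which were lower, and IL11 and IL12A, which were higher, so it stood in genes of both directions. CXCL2 had 8 matches, and IL11, IL12A and CSF2 had 7 each. Examples from genes of both directions are printed below with the motif in capitals.
IL1B, lower, chr2:112829996-112830022, minus strand: cttccctattTATTTATttatttgttt
CXCL8, lower, chr4:73743118-73743144, plus strand: attatttatgTATTTATttaagcatca
IL11, higher, chr19:55365944-55365970, minus strand: agatcttattTATTTATttatttcagt
IL6, higher, chr7:22731921-22731947, plus strand: tttaaagaaaTATTTATattgtattta

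TGCATG stood in the 3' UTR of 5 of the 28 ligand genes (17.9%), against 36.5% of the 14050 genes, and among genes with 3' UTRs of 366 to 1142.25 bases in 1 of 14 ligand genes and 18.9% of all genes. The genes were CSF1, which fell, CX3CL1 and IL11, which rose, and CCL24 and IL1RN, which did not pass. The windows of the called genes are printed because RBFOX1 was the protein expressed, again with the motif in capitals and on GRCh38.
CSF1, lower, chr1:109930147-109930172, plus strand: cagccccaccTGCATGgtatccagct
CX3CL1, higher, chr16:57383549-57383574, plus strand: tgtcttttctTGCATGaggctagtgt
IL11, higher, chr19:55364604-55364629, minus strand: acaaaaccacTGCATGctgtgatccc
IL11, higher, chr19:55364415-55364440, minus strand: ctgtgtatttTGCATGacacatttta
CXCL8, CXCL3, IL1A and IL1B, which had the largest falls besides IL33, hold no TGCATG in these 3' UTRs, which says only that these letters are not in them. The motif says nothing of binding, and mRNA stability was not computed here.

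Of 15 genes for factors that bind or cut AU-rich and stem-loop elements of cytokine mRNAs, 14 were tested, 5 were higher and 4 were lower, beside 23.7% and 22.9% of all genes tested, with a median log2 fold change of 0.054. ZC3H12C and ZC3H12A, endonucleases of the regnase family, were lower with log2 fold changes of -0.93 (adjusted p = 2.51e-09) and -0.77 (adjusted p = 2.63e-06). RC3H2, or roquin-2, was higher by 0.82 (adjusted p = 1.49e-11), its paralog RC3H1 had a log2 fold change of -0.34, HNRNPD, known as AUF1, was higher by 0.73, and MAPKAPK2, a kinase that protects AU-rich mRNAs, had a log2 fold change of -0.43. ZFP36, ZFP36L1, ZFP36L2 and ELAVL1, the most studied binders of AU-rich elements, did not pass, with log2 fold changes from -0.033 to 0.097.

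In the promoter windows, RefSeq sequences were at hand for 16 of the 28 ligand genes, so the shares that follow leave out 12 genes, among them CSF1, CX3CL1, CXCL16, IL15, IL18 and LIF. The NF-kB motif stood in 6 of the 16 (37.5%), against 4.6% of 15840 protein-coding promoters. Besides CXCL8, CXCL3, CXCL2 and IL6, the genes were IL32, which fell, and CSF2, which did not pass. The AP-1 motif TGANTCA stood in 7 of the 16 (43.8%), against 5.8% of all, and the interferon element GAAANNGAA in 5 of the 16 (31.2%), against 7.1% of all. The AP-1 motif was found in the well-measured genes IL1A and IL11, which changed in opposite directions, and those windows are printed with the motif in capitals.
IL1A, lower, chr2:112784489-112784515, minus strand: cgaagaagacTGACTCAggcttaagct
IL11, higher, chr19:55370543-55370569, minus strand: gcagggagggTGAGTCAggatgtgtca
Each motif searched stood in lower, higher and uncalled ligand genes. For the NF-kB motif, however, the only higher gene was IL6, and for the interferon element the only lower gene was CXCL3. IL6 reached the minimum count through the RBFOX1 libraries alone and CXCL3 through the GFP libraries alone. Their calls carry no weight as a count, so whether these promoter motifs occur in genes of both directions cannot be decided here. For the AP-1 motif, IL1A and IL11 show both directions.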

How the data were processed

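RNA of 6 A172 cultures, 3 with GFP and 3 with RBFOX1, was sequenced. The authors' aligner was HISAT2 with GRCh38, and the deposited values are the authors' raw counts per Ensembl release 87 gene from HTSeq-count, stranded and in intersection-strict mode, which drops reads on several genes. Versions of HISAT2, HTSeq and DESeq2 are not given in the sources used here. A deposited table of the authors' own DESeq2 comparison (mean normalized count, log2 fold change, standard error, test statistic and p-values) was not used. The 5 rows that name no gene, 38.15 to 48.0% of read pairs, were left out. Symbols and lengths came from GENCODE release 44, which matched 98.1% of identifiers, and promoters from RefSeq.

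Counts were scaled with TMM and tested two-sided by quasi-likelihood in edgeR 4.0.16 under R 4.3.3. The model held condition alone, and p-values were adjusted by Benjamini-Hochberg, with a threshold of 0.05, over genes with 10 or more counts in all. Standard errors follow from the fitted change and its F statistic. Ratios of scarce genes have exact binomial 95% intervals. p-values measure the spread between these 6 samples. Replicates differed by more than counting noise (chi-square per degree of freedom 1.66 to 9.07, the 2 highest, 8.9 and 9.07, in pairs with GFP replicate 1, the deepest library), and same-numbered libraries did not deviate together. DESeq2 1.42.0, limma 3.58.1 (voom), other scalings and filters, a replicate block, thinned counts and the omission of each library were alternatives. The procedure was tested on simulated data. The members and the lists of receptors, related cytokines, signalling, decay, processing, interferon and marker genes were chosen with earlier results of these data known. All members with 10 or more counts are named, and from each list up to 6 called genes with the largest changes and at least 100 counts, besides receptors of called members. ACKR3, IL7R, MAP3K14, TRAF2, RELA, STAT3, ZFP36, ZFP36L1, ZFP36L2, ELAVL1, PYCARD, MX1 and the marker genes were named after their values were seen. The same holds for JAK1, JAK2, SOCS4, PIAS4, IL3RA and SIGIRR. The results of some listed genes are not reported here.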

Additional observations from a re-analysis of the deposited data

How the results depend on the processing

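The alternatives were other scalings, other filters on low counts, DESeq2, limma-voom, the replicate number as a block, the omission of each library in turn, and, chosen after seeing the data, counts thinned to the smallest library. The number of ligand genes higher in RBFOX1 was 4 to 6 and that of lower ones 9 to 11 in all of them. DESeq2 gave 5 higher and 9 lower. The median log2 fold change of the ligand genes was 0.00018 with library totals in place of TMM, -0.458 with edgeR's filterByExpr, which left out 10 of the 28 genes, and -0.291 in thinned counts. Leaving out each library in turn gave 4 to 6 higher and 9 to 10 lower ligand genes, medians from -0.347, without RBFOX1 replicate 2, to -0.0537, 4288 to 4777 genes of all higher and 4038 to 4530 lower. The sign of the median therefore depends on the settings, and it was near 0 in the main fit. Of 400 values of single ligand genes under the alternatives, 367 kept their direction and their side of the threshold, 18 reversed, 8 lost their call and 7 gained one. The reversals touched only genes that were not called. IL23A had log2 fold changes of -0.0222 with upper-quartile scaling, -0.00987 with a minimum of 1 count, -0.0158 with DESeq2 and -0.48 in thinned counts, and IL34 had -0.0151 with upper-quartile scaling and -0.00116 with a minimum of 1 count. Over the omissions of 1 library, IL23A ranged from -0.184 to 0.15, IL34 from -0.0434 to 0.0755, CCL5 from -0.24 to 1.28, CCL17 from -0.283 to 0.0868 and CSF2 from -1.09 to 0.992. With a replicate block, 6 ligand genes were higher and 10 lower, with a median of -0.0685, 4588 genes of all were higher and 4458 lower, IL23A was at -0.0395 and IL34 at -0.00728. The numbers did not pair the samples, as same-numbered libraries deviated from their group means with correlations of -0.172, 0.0342 and -0.0586. Some genes had too few counts for a test in some alternatives, among them IL33 and IL6 with filterByExpr, IL33 in thinned counts, and IL36B with filterByExpr and without any RBFOX1 library. Depth limits the 16 ligand genes with under 100 counts, for which 3 counts are worth 1.73 to 5.16 normalized counts depending on the library. Over all alternatives 13 to 16 NF-kB genes were lower and 2 to 3 higher, and 8 to 11 JAK-STAT genes were higher and 4 to 5 lower. The cause of these changes was not tested.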

Other observations

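Several interleukin receptors whose ligands were not detected or did not pass also changed. IL31RA, the receptor of IL-31, had 445, 232 and 220 counts in GFP and 30, 61 and 74 in RBFOX1 libraries, a log2 fold change of -1.999 (SE 0.120, adjusted p = 2.90e-11), while IL31 had 1 count in all. IL13RA2, a decoy receptor of IL-13 that is abundant in glioblastoma, had 4175, 2066 and 2286 against 426, 651 and 800 counts and a log2 fold change of -1.73 (SE 0.0546, adjusted p = 1.75e-15). IL20RB fell by 0.97 on the log2 scale (adjusted p = 1.01e-09), and IL21R rose by 1.09 (adjusted p = 1.15e-06) with 112, 51 and 59 against 75, 140 and 132 counts. IL7R, the receptor of IL7, was higher by 0.18 (adjusted p = 0.0286).

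Of 14 interferon response genes, 9 were higher and 1, MX1, was lower, beside 23.7% and 22.9% of all genes tested, with a median log2 fold change of 0.45. Their summed level was 375 to 398 CPM in GFP libraries and 588, 627 and 439 in RBFOX1 replicates 1, 2 and 3, so that the RBFOX1 libraries differed among themselves more than the GFP libraries did. IFIT1 had 308, 195 and 170 counts in GFP and 372, 911 and 463 in RBFOX1 libraries. RBFOX1 replicate 2 was the highest in this list. In normalized counts it was also the highest RBFOX1 library for IL6, CXCL16, CX3CL1 and IL12A, which were called higher, and for IL1A, which was called lower. It was not the highest for IL11 or LIF. The part of the interferon response in the levels of the ligands was not tested.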
